A study of Mus musculus with 4 samples.

Results

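The leukocyte lineage miRNAs miR-142, miR-150 and miR-223 were followed in mouse lung as 4 assays, mmu-miR-142-3p, mmu-miR-142-5p, mmu-miR-150 and mmu-miR-223, taken by name from the 750 miRNA assays of a quantitative PCR study. Adult mice (2 months old) and newborn mice (day 3 at collection) had spent 72 h in 95% oxygen (hyperoxia) or in room air. The libraries were adult hyperoxia, adult room air, neonatal hyperoxia and neonatal room air, 1 library per group. All 4 groups shared the same handling: the pulmonary artery was flushed with saline before the right lung was frozen. Dams were moved between the atmospheres every day. The labels name no strain or genotype and do not say how many animals make up a library.

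miRNAs guide the silencing of messenger RNAs that pair with their seed, the bases 2 to 8 of the mature strand. miR-142 is made in nearly all blood-forming cells and serves as a pan-leukocyte label, with both arms of its hairpin in use. miR-150 is abundant in mature lymphocytes, where it restrains the transcription factor Myb, and miR-223 is abundant in neutrophils and other myeloid cells, where it limits granulocyte activation. In whole lung such miRNAs come from resident and infiltrating leukocytes and from blood left in the vessels. In bulk tissue, fewer cells of a type and less RNA per cell cannot be told apart.

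Mature sequences are shown because both miR-142 assays read arms of one hairpin, so that their agreement is a check within the data. RefSeq (GRCm38.p6) held 3 of the 4 mature strands. The seed is in capitals.

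mmu-miR-142-3p: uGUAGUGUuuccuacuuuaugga
mmu-miR-142-5p: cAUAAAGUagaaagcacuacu
mmu-miR-223: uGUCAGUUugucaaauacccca

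These lie at chr11:87756903-87756925, chr11:87756867-87756887 and chrX:96242884-96242905, all on the plus strand, and are listed in RefSeq as the 3p and 5p arms of miR-142a and the 3p arm of miR-223. The 3 seeds are distinct, and 0 other mature mouse miRNAs among the 1738 in the table carry any of them. In the 64-base hairpin of miR-142 (chr11:87756864-87756927, plus strand), capitals mark the 2 arms that the assays measure.

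Mir142 hairpin: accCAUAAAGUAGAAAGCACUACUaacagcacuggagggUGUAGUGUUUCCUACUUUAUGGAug

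The instrument reports a threshold cycle (Ct), which falls by 1 for each doubling of RNA at perfect amplification. Levels below are log2 values relative to the small nucleolar RNA snoRNA202 of the same card, with higher values for more RNA. Levels of different assays are not comparable, because each assay has its own efficiency. All 16 readings were far from the detection limit of Ct 35: Ct ran from 16.8 to 18.6 for miR-142-3p, from 24.1 to 26.2 for miR-142-5p, from 13.7 to 15.3 for miR-150 and from 15.1 to 16.3 for miR-223. No difference between libraries could be checked against replicates, since each group had 1 library. The only repeat readings were 4 control RNAs present on both cards, with Ct from 8.74 to 24.0, which gave a technical SD of a difference between 2 libraries. For hyperoxia against room air it was 0.33 log2 in adults and 0.26 in neonates. For adult against neonatal libraries it was 0.65 in room air and 0.95 in hyperoxia. These 2 values rest largely on U6, whose difference changed between cards by 1.52 in room air and 2.32 in hyperoxia. For the other controls this change was -0.37 to 0.80 and 0.425 to 1.07. A value without U6 was not computed, so being within the SD is a weak limit for age. The technical SD leaves out variation between animals, and miR-142-5p was read later than any of these controls. Across the 4 libraries 468 to 507 of the 750 miRNA assays were detected. Endothelial miR-126, a defining miRNA of lung vessels, had a Ct of 9.96 to 11.0.

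The pan-leukocyte miRNA miR-142-3p had a level of -3.93 in adult hyperoxia and -3.41 in adult room air, against -4.56 in neonatal hyperoxia and -4.50 in neonatal room air. Both adult libraries were above both neonatal ones. The smallest gap between the ages, 0.57 between adult hyperoxia and neonatal room air, was within the technical SD of 0.72 for that pair. How many of all assays separate the ages in this way was not counted. The neonatal values were 0.07 apart, within the technical SD.

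The other arm, miR-142-5p, had a level of -11.25 in adult hyperoxia and -10.94 in adult room air, against -11.70 in neonatal hyperoxia and -12.11 in neonatal room air. The adult libraries were again the higher ones, but the smallest gap between the ages, 0.46 in hyperoxia, was within the technical SD of 0.95. Its 2 adult values were 0.31 apart, within the technical SD of 0.33, and its 2 neonatal values 0.41 apart, beyond the SD of 0.26.

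Lymphocyte miR-150 had a level of -0.81 in adult hyperoxia and -0.35 in adult room air, against -0.86 in neonatal hyperoxia and -1.22 in neonatal room air. Adult room air was highest and neonatal room air lowest, while both hyperoxia libraries lay between them, 0.04 apart. For all of these 3 assays adult room air was the highest library on snoRNA202. With libraries centred on their mean, adult hyperoxia was the highest for all 3. With cards centred on their median it was also the highest for miR-142-5p.

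Myeloid miR-223 showed another order. Its level was -2.29 in adult hyperoxia, -2.32 in adult room air, -1.82 in neonatal hyperoxia and -2.29 in neonatal room air. Neonatal hyperoxia was highest and the other 3 libraries lay within 0.03 of each other. Neonatal hyperoxia was 0.47 above both neonatal room air, beyond the technical SD of 0.26, and adult hyperoxia, within the SD of 0.95.

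**Figure D1:**
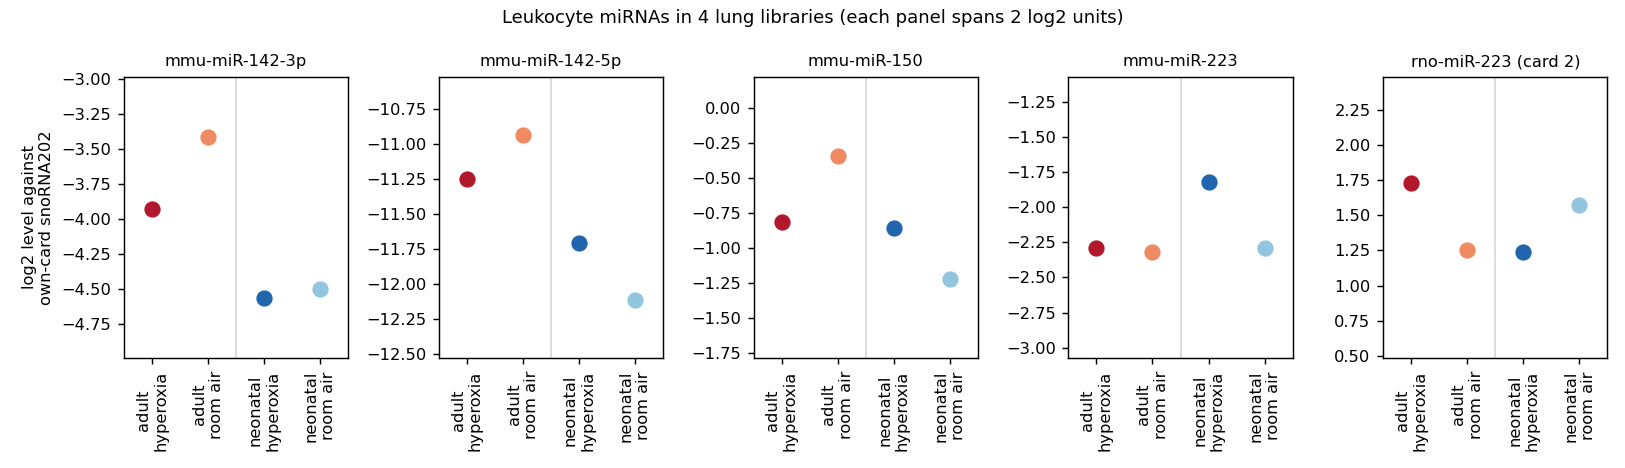
log2 level against the snoRNA202 of the same card (y axis, 2 log2 units in each panel) in the 4 libraries (x axis, 1 point per library) for the 4 assays and a second, rat-named miR-223 assay. On this scale adult room air is the highest library for miR-142-3p, miR-142-5p and miR-150, while mouse-named miR-223 is highest in neonatal hyperoxia. The highest library changes with the reference.

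Age was compared first in room air, to follow lung development. miR-142-5p was 1.18 log2 higher in the adult library (2.26-fold) and miR-142-3p was 1.08 higher (2.12-fold). miR-150 was 0.87 higher (1.83-fold) and miR-223 was at -0.03. Thus 2 of 4 were at least 2-fold higher, against 16.6% of the 435 assays detected in both libraries. The technical SD of 0.65 was exceeded by miR-142-3p, miR-142-5p and miR-150, and none of the 4 exceeded it 2 times over.

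The reference matters here, since the median of all 435 assays was -0.57. Relative to that median, miR-142-5p was 1.75 higher, miR-142-3p 1.66, miR-150 1.45 and miR-223 0.55. Of all assays, 86.0% had a lower difference than miR-142-5p, 84.4% a lower one than miR-142-3p, 81.1% a lower one than miR-150 and 61.1% a lower one than miR-223. All 4 were above the median of all assays under own-card snoRNA202, under the deposited delta Ct and under the 4 further references named below, in this and in the next comparison, for miR-223 by as little as 0.13. These are not independent checks, since each reference moves all first-card assays by one amount. Only second-card assays can change the distance of the 4 from the median. Among first-card assays alone, 57.1% had a lower difference than miR-223 in room air and 60.1% in hyperoxia.

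Between the hyperoxia libraries the age differences were smaller on the same scale. miR-142-3p was 0.63 log2 higher in the adult (1.55-fold), miR-142-5p was 0.46 higher (1.37-fold), miR-150 was at 0.04 and miR-223 at -0.47. Here 0 of 4 reached 2-fold, where 60.2% of 450 assays did in either direction, and all 4 lay within the technical SD of 0.95. The median of all assays was -0.98, and relative to it miR-142-3p was 1.62 higher, miR-142-5p 1.44, miR-150 1.03 and miR-223 0.51. The ranks were close to those in room air, with 85.1% of assays below miR-142-3p, 81.8% below miR-142-5p, 73.8% below miR-150 and 60.9% below miR-223.

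**Figure D2:**
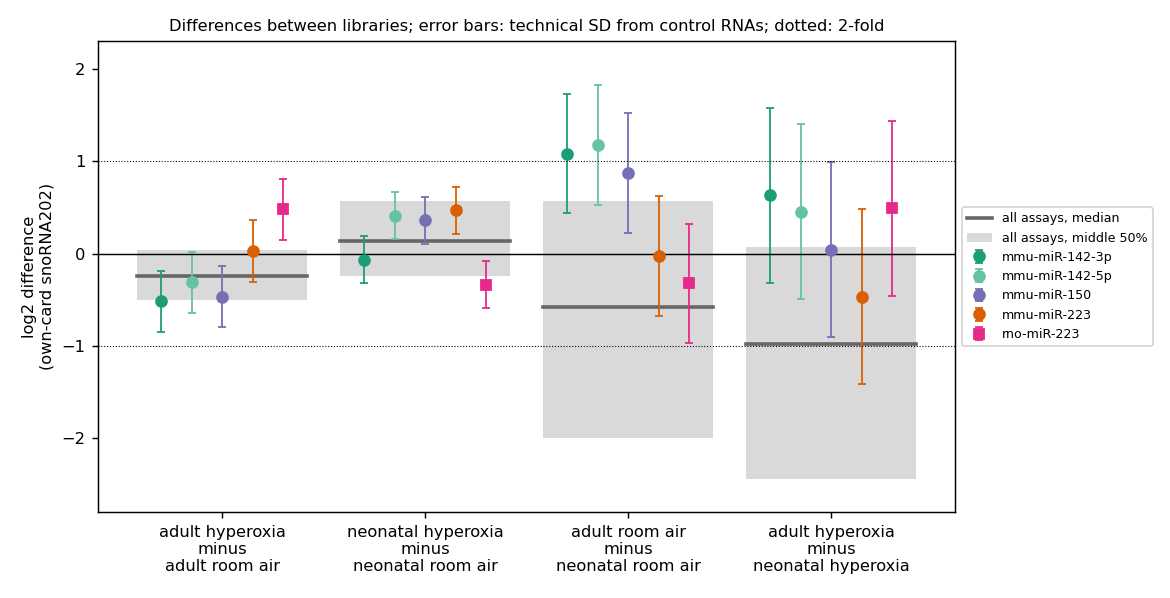
log2 difference between 2 libraries (y axis) for 4 comparisons (x axis). Points are the 4 assays and the rat-named miR-223 assay (square), error bars the technical SD from control RNAs, grey bars the middle 50% of all detected assays, dark lines their median and dotted lines 2-fold. In both age comparisons the miR-142 arms lie above the middle 50% of all assays, and in both oxygen comparisons no point reaches 2-fold.

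An additive fit of both factors to the 4 libraries (limma, 426 assays, 1 residual degree of freedom) gave an age effect of 0.86 ± 0.32 log2 (SE) for miR-142-3p (limma, Benjamini-Hochberg adjusted p = 0.128) and 0.82 ± 0.36 for miR-142-5p (limma, adjusted p = 0.167). It gave 0.46 ± 0.38 for miR-150 (limma, adjusted p = 0.397) and -0.25 ± 0.32 for miR-223 (limma, adjusted p = 0.572). None of the 4 passed the threshold of 0.05 on the snoRNA202 scale, where 35.7% of all assays did in either direction, 5.63% higher in adults and 30% lower. The same model with other references gave other calls. Against U6, 4 of 4 rose with age, at 3.67 for miR-142-3p, 3.63 for miR-142-5p, 3.27 for miR-150 and 2.56 for miR-223 (limma, adjusted p from 0.00796 to 0.00886), and 46% of all assays were called higher. With each card centred on its median, 4 of 4 rose, by 2.26, 2.22, 1.86 and 1.15 in the same order (limma, adjusted p from 0.0149 to 0.0382), against 31.9% of all assays. With each library centred on its mean, 3 of 4 rose (1.70 for miR-142-3p, 1.65 for miR-142-5p and 1.30 for miR-150), against 23.2%. With the mean of snoRNA202 and snoRNA135, 2 of 4 rose (1.45 for miR-142-3p and 1.40 for miR-142-5p), against 11.7%. U6 itself was at -2.65 log2 on the first card in adult against neonatal room air and at -2.98 in hyperoxia. First-card differences moved up by these amounts in the 2 comparisons with this reference. On the second card U6 was at -1.12 and -0.66, so its 2 cards disagreed.

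**Figure D3:**
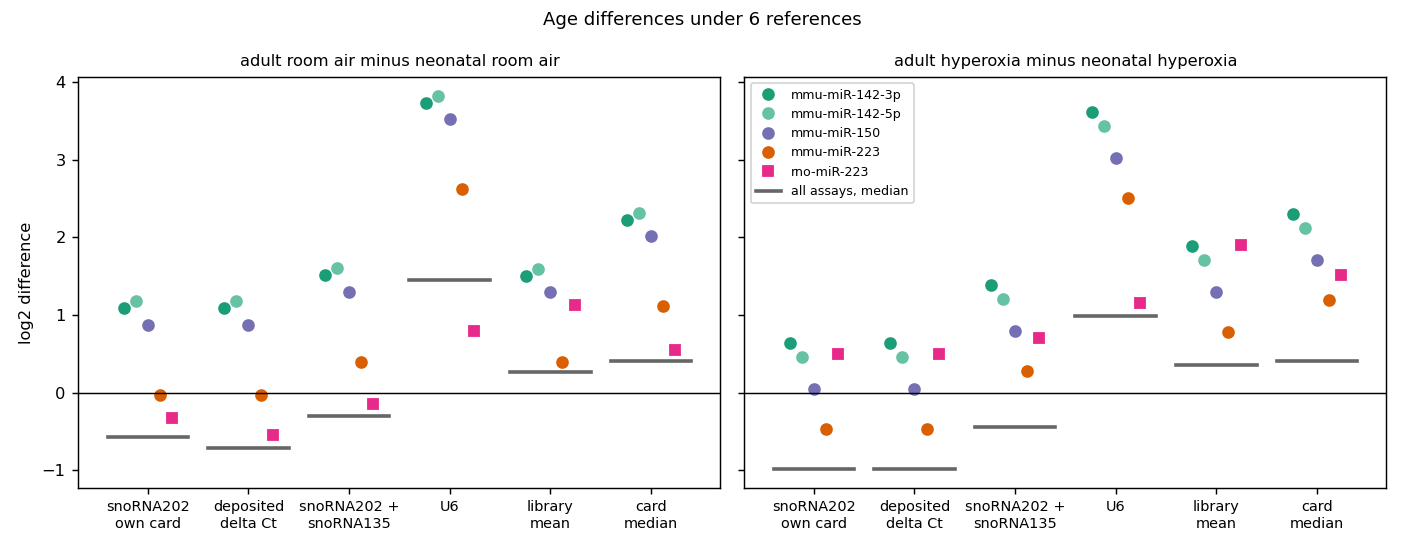
log2 difference of adult minus neonatal libraries (y axis) under 6 references (x axis), in room air (left) and in hyperoxia (right); grey lines are the median of all detected assays. All 4 mouse-named assays are on the first card, so a reference moves them together and their order is fixed, while their height and that of the median move with the reference.

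Ratios between 2 assays of the first card do not depend on any reference, and the technical SD above applies to them, since it was also measured between 2 assays of one card. These ratios were chosen after their values were seen, except those of miR-223 to miR-150 and of the 2 miR-142 arms. The ratio of miR-223 to miR-142-3p was 1.64 log2 in adult hyperoxia and 1.09 in adult room air, against 2.74 in neonatal hyperoxia and 2.20 in neonatal room air. It was lower in the adult by 1.11 in room air (difference -1.11, 2.16-fold) and by nearly the same in hyperoxia (difference -1.10, 2.15-fold). After hyperoxia it was 0.54 higher in both ages. Of these, the age difference in hyperoxia was just beyond the technical SD and the other 3 were 1.64 to 2.10 times as large as their SD.

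The ratio of miR-223 to miR-150, a myeloid against a lymphocyte miRNA, was -1.48 log2 in adult hyperoxia and -1.98 in adult room air, against -0.96 in neonatal hyperoxia and -1.07 in neonatal room air. Both adult libraries were below both neonatal ones, an order that was not set against other pairs of assays. The difference was -0.90 in room air, beyond the technical SD, and -0.51 in hyperoxia, within it. After hyperoxia the ratio was 0.50 higher in the adult, beyond the SD, and 0.11 higher in the neonate, within it. The ratio of miR-223 to miR-142-5p was likewise lower in the adult, at -1.20 in room air and -0.93 in hyperoxia. After hyperoxia this ratio was 0.34 higher in the adult, just beyond the SD, and 0.06 higher in the neonate, within it. The equal rise of 0.54 at both ages was thus seen with miR-142-3p only.

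The 2 arms of miR-142 kept nearly one ratio across ages. The Ct gap between them was 7.32 cycles in adult hyperoxia and 7.52 in adult room air, against 7.14 in neonatal hyperoxia and 7.61 in neonatal room air. It differed by -0.09 between adult and neonatal room air and by 0.18 between adult and neonatal hyperoxia, both within the technical SD. The largest difference between compared libraries was -0.48 in neonatal hyperoxia against neonatal room air, 1.86 times the SD.

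**Figure D4:**
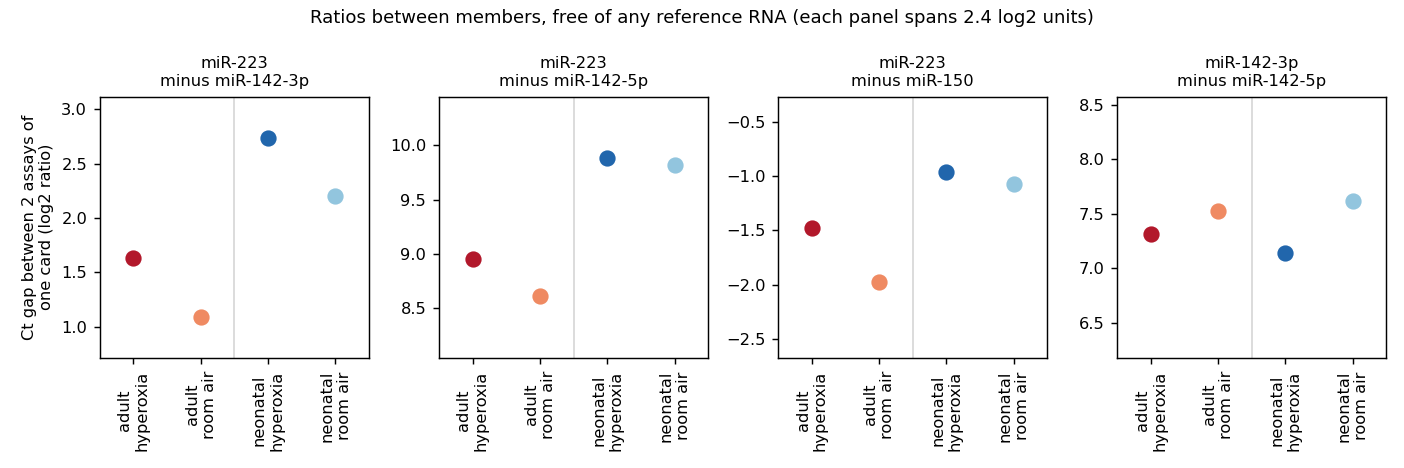
log2 ratio between 2 assays of the first card, equal to their Ct gap (y axis, 2.4 log2 units in each panel), in the 4 libraries (x axis, 1 point per library). In all 3 ratios with miR-223 both adult libraries lie below both neonatal ones, while the ratio of the 2 miR-142 arms stays within 0.48. Other pairs of assays were not counted.

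The response to hyperoxia was small in all 4 assays. In adult lung miR-142-3p was at -0.52 log2, miR-150 at -0.47, miR-142-5p at -0.31 and miR-223 at 0.03. None reached 2-fold, where 12.1% of 448 assays did. The median of all assays was -0.24, and miR-142-3p and miR-150 exceeded the technical SD of 0.33 on snoRNA202 and in the deposited delta Ct. Under the 4 other references both were within that SD, and with libraries centred on their mean they were above 0, miR-142-3p at 0.15 and miR-150 at 0.20. Over the 6 references miR-223 was at 0.03 to 0.695, above 0 under all, and miR-142-5p at -0.31 to 0.36. With libraries centred, miR-223 and miR-142-5p were at the upper ends of these ranges, beyond the SD. With cards centred, miR-223 was at 0.35, also beyond it.

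In neonatal lung miR-223 was 0.47 log2 higher after hyperoxia (1.39-fold), miR-142-5p 0.41 (1.33-fold) and miR-150 0.36 (1.29-fold), while miR-142-3p was at -0.07. None reached 2-fold, where 22.2% of 469 assays did. The median of all assays was 0.13, and all but miR-142-3p exceeded the technical SD of 0.26 on snoRNA202. With libraries centred on their mean, miR-142-5p (0.24) and miR-150 (0.19) were within that SD. With cards centred both were again within it (0.21 and 0.16), and miR-142-3p at -0.27 was just beyond it. Over the 6 references miR-223 was at 0.27 to 0.47, miR-142-5p at 0.21 to 0.41, miR-150 at 0.16 to 0.36 and miR-142-3p at -0.27 to -0.07. The additive model gave an oxygen effect of -0.29 ± 0.32 for miR-142-3p (limma, adjusted p = 0.988), 0.05 ± 0.36 for miR-142-5p, -0.05 ± 0.38 for miR-150 and 0.25 ± 0.32 for miR-223. The share of all 426 assays called for oxygen was 0% (limma), and 13 had an unadjusted p under 0.05, with 0 of the 4 leukocyte assays among them.

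miR-142-5p and miR-150 were thus above 0 after oxygen in neonates and below 0 in adults. Of all 426 assays, 41.5% had this pattern, and the median difference between the adult and neonatal responses was -0.32, against -0.45 for miR-142-3p, -0.72 for miR-142-5p, -0.83 for miR-150 and -0.44 for miR-223. The neonatal values of miR-142-5p and miR-150 were above 0 under all 6 references. The adult value was below 0 under 4 of them for miR-142-5p and under 5 for miR-150. With 1 library per group this difference between ages was not tested.

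A second assay for miR-223, named for rat (rno-miR-223), sits on the other card. Its level was 1.73 in adult hyperoxia and 1.25 in adult room air, against 1.24 in neonatal hyperoxia and 1.58 in neonatal room air. Highest here was adult hyperoxia and lowest neonatal hyperoxia, the library in which the mouse-named assay was highest on snoRNA202. Under the 4 references other than snoRNA202 alone and the deposited delta Ct, both assays were highest in adult hyperoxia. For hyperoxia against room air it gave 0.48 in adults, where the mouse-named assay gave 0.03, and -0.34 in neonates, where the mouse-named assay gave 0.47. Over the 6 references the rat-named assay was at 0.44 to 0.705 in adults and at -0.415 to 0.17 in neonates, above 0 there with U6 only. For adult against neonatal libraries it gave -0.32 in room air and 0.49 in hyperoxia, against -0.03 and -0.47 on the mouse-named assay. On snoRNA202 neither assay varied by more than 0.50 over the 4 libraries, and they disagreed in sign in 2 of the 4 comparisons. One of these was adult against neonatal hyperoxia, where both were above 0 under the same 4 references, at 0.28 and 0.70 with snoRNA202 and snoRNA135. In the neonatal oxygen comparison 7 of 15 pairs of mouse-named and rat-named assays of one miRNA disagreed in sign, with a median gap of 0.42, and the gap of miR-223 was 0.81. In the adult oxygen comparison 6 of 15 disagreed, and in the age comparisons 4 in room air and 3 in hyperoxia.

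The rat-named assay also bears on the ratio to miR-142-3p. Set against miR-142-3p across the 2 cards, rno-miR-223 was lower in the adult by 1.41 in room air (difference -1.41) and differed by -0.14 in hyperoxia. After hyperoxia the same ratio was at 1.00 in adults and -0.27 in neonates. The nearly equal age differences seen with the mouse-named assay were not repeated by the second one on the snoRNA202 scale. Across cards this ratio depends on the reference, unlike the ratios within the first card. With U6, rno-miR-223 was at 0.80 in adult against neonatal room air and at 1.15 in hyperoxia. On the same scale miR-142-3p was at 3.73 and 3.61. The passenger strand of miR-150 (mmu-miR-150*) was listed at Ct 40, no crossing, in all 4 libraries.

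A wider list of 13 miRNAs of lymphocytes, macrophages and inflammatory activation was set beside the 4, leaving out miR-511, whose Ct was 11.1 in adult room air and 26.2 to 31.5 in the other 3 libraries. Between the room air libraries 10 were measured, of which 3 were 2-fold or more higher in the adult and 2 were lower by as much, where 16.6% of all assays were higher and 43% lower. Their median was 0.34 log2. Between the hyperoxia libraries 11 were measured, with 1 higher, 2 lower and a median of -0.55, where 10.9% of all assays were higher and 49.3% lower. After hyperoxia in neonates 10 had a median of 0.63, with 8 above 0 and 2 below. Of them 3 were 2-fold higher and 0 lower, where 22.2% of all assays differed 2-fold. In adults 12 had a median of -0.04, with 2 higher and 1 lower, where 12.1% differed. miR-155 was listed at Ct 40 in neonatal room air, against 18.9 to 19.65 in the other 3 libraries. In the additive model 0 of 10 rose with age and 1 fell on the snoRNA202 scale (limma, adjusted p under 0.05), where 5.63% of all assays rose and 30% fell. With U6 7 rose and 0 fell, where 46% of all assays rose and 16.7% fell.

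The assay that fell was miR-342-5p (-3.30 ± 0.30; limma, adjusted p = 0.0102). It and miR-342-3p, the other arm of a miRNA found in lymphoid cells, went against miR-150. The other lymphocyte miRNAs of the list were mixed. For adult against neonatal libraries, miR-181a was at 0.25 in room air and -0.64 in hyperoxia. There miR-181c was at -0.84 and -0.01. miR-342-3p had a level of -4.23 in adult hyperoxia and -4.46 in adult room air, against -2.58 in neonatal hyperoxia and -3.27 in neonatal room air. The ratio of miR-150 to miR-342-3p, free of the reference, was 3.42 in adult hyperoxia and 4.11 in adult room air, against 1.72 in neonatal hyperoxia and 2.05 in neonatal room air. It was 2.06 higher in the adult in room air (4.18-fold) and 1.69 higher in hyperoxia (3.24-fold), beyond the technical SD in both. This ratio was singled out after its values were seen. In the model, miR-342-3p was at -1.42 ± 0.32 (limma, adjusted p = 0.0536), missing the threshold, which it passed with detection at Ct 32 and without row L of the first card, the row of miR-511 (limma, adjusted p = 0.0375 and 0.0457), and with U6 it was at 1.39, called higher. miR-342-5p was at -0.49 with U6 and not called.

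Other cell types were read from their own lists. The erythroid miRNAs, a measure of red cells left in the lung, were at a median of -0.69 in neonatal hyperoxia against room air (miR-451 -0.91, miR-144 -0.69, miR-486 -0.56). In the same comparison miR-223 (0.47), miR-142-5p (0.41) and miR-150 (0.36) were above 0, while miR-142-3p (-0.07) and the rat-named miR-223 assay (-0.34) were below it. In adult hyperoxia their median was -0.32, and between adult and neonatal room air it was -1.03, with miR-451 at 0.12. The part of residual blood in the values of the leukocyte miRNAs was not tested. Epithelial miR-200 family members had a median of 0.73 in neonatal hyperoxia against room air, above the 0.39 of the 4 leukocyte miRNAs, and -0.51 in adult hyperoxia against room air, where the leukocyte median was -0.39. Endothelial miR-126 and miR-126-5p were at 0.47 and 0.29 in neonatal hyperoxia against room air, a median of 0.38 beside the leukocyte 0.39, and had a median of -0.04 in adult hyperoxia against room air. The 5 mesenchymal and smooth muscle miRNAs had a median of -0.40 in adult hyperoxia against room air, with 5 of 5 below 0, and of 0.09 in neonates.

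MiRNAs of other organs also differed between the hyperoxia and room air libraries. Liver miR-122 had a Ct of 28.3 in adult hyperoxia and 32.8 in adult room air, and of 27.6 in neonatal hyperoxia and 36.0 in neonatal room air. Brain miR-124 had a Ct of 26.3 in adult hyperoxia and 29.8 in adult room air, and of 29.8 in neonatal hyperoxia and 40 (no crossing) in neonatal room air. Both were thus read earlier in each hyperoxia library than in its room air counterpart, by 2-fold or more where both libraries were below Ct 35. Their part in the oxygen values of the leukocyte miRNAs was not tested.

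**Figure D5:**
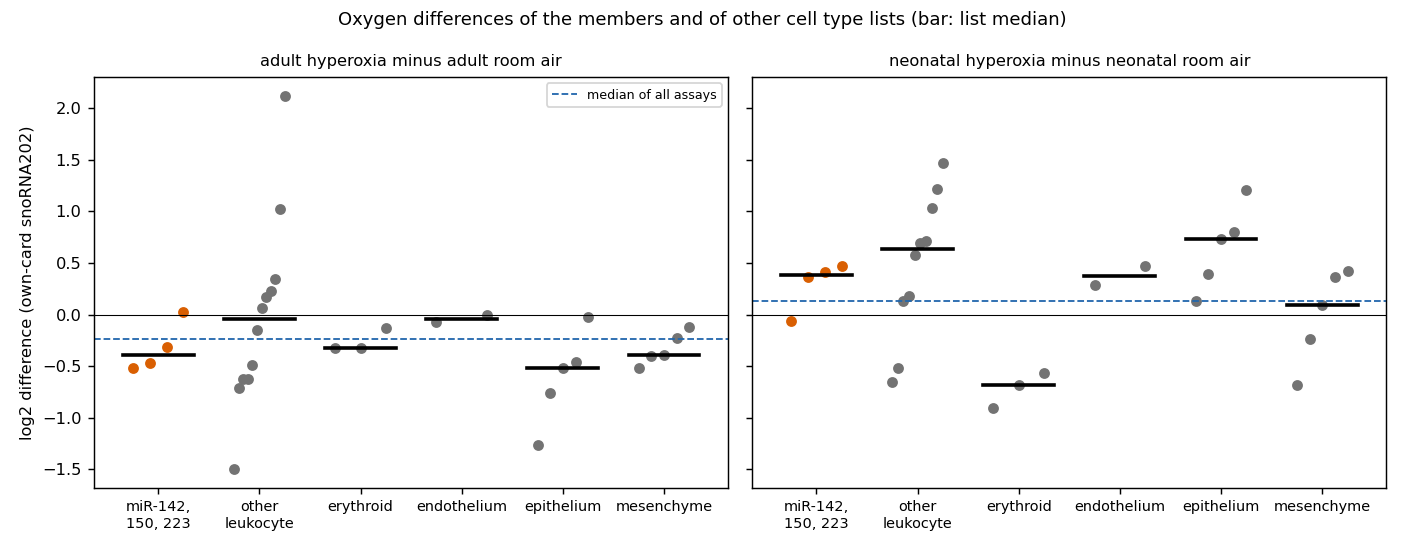
log2 difference of hyperoxia minus room air (y axis) for the 4 leukocyte miRNAs (orange), other leukocyte miRNAs (12 in adults, 10 in neonates) and lists of other cell types (x axis); each point is 1 miRNA, black bars are list medians and the dashed line is the median of all assays. In neonates the leukocyte, endothelial and epithelial medians are above the line and the erythroid and mesenchymal medians are below it.

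The assays whose pattern over the 4 libraries was most like each of the 4 were found by the root mean square difference of levels centred on their own mean, over 383 assays with Ct of 32 or below. Nearest to miR-142-3p were miR-27b (0.04 log2), miR-467f (0.06) and miR-151-5p (0.06). Nearest to miR-142-5p were miR-140 (0.07), miR-34b-5p (0.09) and the rat-named miR-34b (0.11). Nearest to miR-150 were miR-24 (0.04), miR-466g (0.06) and miR-24-1* (0.09). Nearest to miR-223 were miR-500 (0.07), miR-126 (0.09) and miR-324-3p (0.09). Among the 4 themselves the 2 miR-142 arms were 0.18 apart, miR-142-5p and miR-150 0.19, and miR-223 was 0.40 to 0.62 from the other 3. Each assay had closer matches outside the group than within it, over 4 libraries that share the reference RNA. With 383 assays searched and only 3 others in the group, this outcome was likely in advance, and nothing is drawn from it. How many of the 383 assays lay closer than the nearest of the group was not counted.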

How the data were processed

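The authors deposited, for 768 wells on 2 cards (750 miRNA assays and 18 control wells), threshold cycles (Ct) and delta Ct values against snoRNA202, both log2 scales on which more RNA gives a lower value, per the file headers. Per the labels' protocols, RNA was reverse transcribed with Megaplex primers and preamplified for TaqMan detection. Instrument software and its threshold: not given in the sources used here. No read depth exists for this assay. Ct values were identical in both deposited tables.

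Levels were computed as minus Ct plus the Ct of snoRNA202 of the well's own card. For the 4 leukocyte assays these are the negatives of the deposited delta Ct. In adult room air the deposited values of all 384 second-card wells use the first card's snoRNA202, an offset of 0.225. An assay entered a comparison if its Ct was at most 35 in both libraries, and 2-fold means 1 log2 unit. The technical SD is the root mean square gap between cards of U6, snoRNA135, U87 and Y1, divided by the square root of 2. The age and oxygen model was fitted with limma 3.58.1 (lmFit, eBayes; R 4.3.3) to the 426 assays that all 4 libraries detected, adjusted over all of them by Benjamini-Hochberg, and was tested on simulated data. It takes the oxygen effect as equal at both ages. Its 1 residual degree of freedom is the difference between the adult and neonatal oxygen responses, which thus counts as error. The labels do not say whether libraries are single animals or pools, and the p-values reflect spread between these libraries that may be technical. Assays were chosen by name, and the assays, lists and alternatives were chosen with earlier results of these data known. Named are the 4 assays, other assays of the same miRNAs, examples from the lists, and the 3 assays nearest in pattern to each.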

Additional observations from a re-analysis of the deposited data

Results flagged for a closer look

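The oxygen difference went one way in neonates and the other way in adults for 3 assays. For miR-142-5p it was -0.31 log2 in adults and 0.41 in neonates, a difference between ages of -0.72. For miR-150 it was -0.47 in adults and 0.36 in neonates, a difference of -0.83. For the rat-named miR-223 assay it was 0.48 in adults and -0.34 in neonates, a difference of 0.82, opposite in direction to the mouse-named assay at -0.44. With U6 the neonatal value of the rat-named assay was 0.17. Each group is 1 library, so these differences were not tested. Opposite signs in either direction occurred in 52.1% of the 426 assays detected in all 4 libraries.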

How the results depend on the processing

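The number of leukocyte assays called for age by limma was 0 on own-card snoRNA202, with the deposited delta Ct, with detection at Ct 32 or under 40 and without row L of the first card. It was 2 with snoRNA202 and snoRNA135 together, 3 with libraries centred on their mean, and 4 with U6 and with cards centred on their median. The number at least 2-fold different between adult and neonatal room air was 2, and it was 4 with U6 and with cards centred and 3 or 2 otherwise. Between adult and neonatal hyperoxia it was 0, and it was 2 with snoRNA202 and snoRNA135, 4 with U6, 3 with libraries centred, 4 with cards centred and 1 at 1.5-fold. Counts for both oxygen comparisons and for the oxygen effect in limma were 0 under every alternative run. Of 80 values of single assays under other references, 56 lay within the technical SD of the main value and 24 did not. The 56 include the 16 values of the deposited delta Ct, which for these assays are the main values themselves. The age difference of miR-223 ranged from -0.03 to 2.62 in room air and from -0.47 to 2.51 in hyperoxia. It was below 0 on snoRNA202 and in the deposited delta Ct and above 0 under the 4 other references, by over 2-fold with U6 and with cards centred. No paired analysis was possible because each group has 1 library. Leaving out a replicate was not possible for the same reason. snoRNA202 itself crossed 0.621 cycles earlier on the first card and 1.65 earlier on the second in adult against neonatal room air, and 0.691 and 0.84 earlier in hyperoxia; how much of this is RNA input was not tested.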
